A study of Mus musculus with 6 samples.

Results

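The core of the PI3K, Akt and mTOR pathway was followed in the mouse line MC3T3-E1, pre-osteoblasts that come from the calvaria, as 43 genes chosen by symbol and role, with earlier results of these data known but not by a rule on their values, of the 26187 genes measured. The genes encode PI3K subunits and insulin receptor substrates, PDK1, Akt and SGK kinases, phosphatases of the pathway, subunits of the mTOR complexes, the TSC, Rheb and AMPK regulators, translation effectors, and GSK3 and BCL2-family effectors. Poly(A) RNA was sequenced from 3 libraries of cells that received 30 μg/mL of PAKG–8diol–PEG(S) MPs over 2 days (called PAKG) and from 3 libraries of cells kept in the same osteoconductive medium without MPs (called OC). The MPs are small microparticles of a polymer built from α-ketoglutarate, a metabolite of the tricarboxylic acid cycle, and 1 question of the study was which signaling pathways differ in cells that received them. Both groups are the same unmodified cell line at 1 dose and 1 time, with β-glycerophosphate and ascorbic acid in the medium, and no library of cells given particles of another polymer was analysed here. The study describes replicate wells for its cell experiments, but does not tie the 3 libraries of a group to wells or to separate cultures, so each p-value rests on the spread among these libraries alone, which may be technical.

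PI3K is a lipid kinase made of a catalytic and a regulatory subunit. Insulin and growth factor receptors recruit it, often through insulin receptor substrates, and its product brings PDK1 and Akt to the membrane, where Akt is switched on. Akt restrains GSK3, pro-death BCL2-family proteins and the TSC complex, and with TSC restrained, Rheb activates mTOR complex 1, which drives cap-dependent translation through S6 kinases and the 4E-binding proteins. In osteoblasts the pathway is known for its part in growth, survival and differentiation. Its kinases are switched mainly by phosphorylation, which RNA levels do not measure.

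Of the 43 genes, 39 had a mean of at least 0.5 FPKM (fragments per kilobase of transcript, scaled to the mapped fragments of the library, so a level corrected for length and depth) and were tested. Of these 39, 1 was higher and 2 were lower in PAKG at an adjusted p under 0.05 (limma, Benjamini-Hochberg over all 12590 genes tested). Pik3r2, a regulatory PI3K subunit, was higher, whereas Irs2, an insulin receptor substrate, and Eif4e, the cap-binding protein of translation initiation, were lower. The background was 5.97% of all genes called higher and 8.73% called lower, and the 7.69% of the 39 called in either direction lay below the 14.7% of all genes. None of the 43 genes is among those the study names as changed. Cyclin, FoxO, matrix and growth factor genes were also left out of the list. Such a choice can lower the share called, so the core genes and all genes are not like sets, here or in the shares below. At the study's additional threshold of a 2-fold change 0 of the 39 were called by limma, against 1.45% of all genes, while 3 were higher and 5 lower at an unadjusted p under 0.05. Those 8 are 20.5% of the 39, against 28.8% of all genes (12.0% higher and 16.8% lower). The median log2 fold change (PAKG against OC, log2(FPKM + 0.1) scale) was -0.06 over the 39 genes and -0.03 over all genes, and the median size of the change was 0.10 against 0.16. The 95% confidence interval of the change lay within 2-fold in both directions for 38 of the 39 genes, all but Irs2, and within 1.5-fold for 32.

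Libraries with the same replicate number tended to deviate together, most clearly for replicate 2. A fit with that number as a replicate block, a pairing taken from these same values and not from a label, called more genes. With the block, 3 genes were higher (Pik3r2, Pik3r3 and Bcl2l11) and 6 were lower (Irs2, Eif4e, Eif4ebp1, Ddit4, Pdpk1 and Pik3r1). The block also called more of the whole transcriptome, 12.3% of genes higher and 17.1% lower, and the 23.1% of the 39 called with it stood below the 29.5% of all genes. The values of the 3 libraries of each group did not overlap for 11 of the 39 genes, or 28.2%, against 33.4% of all genes.

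**Figure D1:**
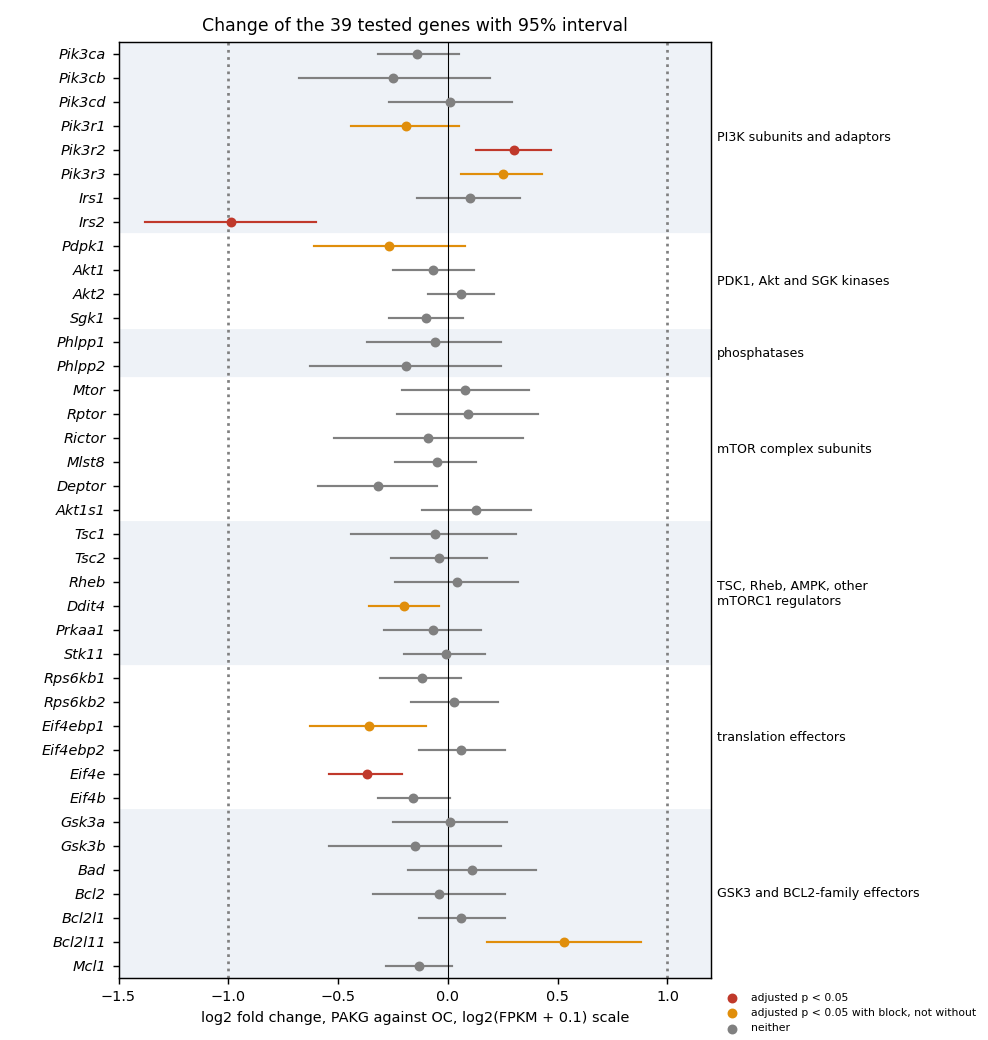
Log2 fold change (x axis, PAKG against OC, log2(FPKM + 0.1) scale) of the 39 tested genes, grouped by role, with the 95% confidence interval as a bar and a change of 2-fold as dotted lines. Pik3r2, Irs2 and Eif4e, in red, passed the adjusted p without the block, the 6 genes in orange passed with the block but not without it, and only the interval of Irs2 reaches past 2-fold.

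The promoters of the 3 genes called without the block are shown because these passed the main test used here, which sets no fold threshold. None of the 3 reached the 2-fold change that the study also requires. The table of promoters held 39 of the 43 genes. Each sequence is the 250 bases before a RefSeq transcription start on GRCm38.p6, 5′ to 3′ on the gene's strand, with capitals for matches on either strand to 4 motifs: the E-box CACGTG, the cAMP response element TGACGTCA, the FoxO site GTAAACA and the GC box GGGCGG.
Pik3r2, chr8:70776713-70776962, minus strand: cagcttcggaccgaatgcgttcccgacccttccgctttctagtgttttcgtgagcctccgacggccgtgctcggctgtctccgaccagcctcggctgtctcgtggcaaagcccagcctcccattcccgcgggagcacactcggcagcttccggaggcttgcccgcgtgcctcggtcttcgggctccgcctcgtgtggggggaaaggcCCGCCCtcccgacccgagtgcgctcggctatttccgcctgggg
Irs2, chr8:11008930-11009179, minus strand: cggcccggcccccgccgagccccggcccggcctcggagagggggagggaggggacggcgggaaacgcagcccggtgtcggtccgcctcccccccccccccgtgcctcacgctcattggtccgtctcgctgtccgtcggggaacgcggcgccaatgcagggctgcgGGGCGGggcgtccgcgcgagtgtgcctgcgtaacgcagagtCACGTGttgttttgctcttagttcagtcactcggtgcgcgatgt
Eif4e, upstream start, chr3:138525941-138526190, plus strand: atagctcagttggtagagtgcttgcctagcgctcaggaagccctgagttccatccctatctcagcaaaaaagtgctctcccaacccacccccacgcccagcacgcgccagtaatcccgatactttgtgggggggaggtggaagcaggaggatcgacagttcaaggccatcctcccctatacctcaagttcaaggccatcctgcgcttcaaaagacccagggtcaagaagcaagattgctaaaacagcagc
Eif4e, downstream start, chr3:138527018-138527267, plus strand: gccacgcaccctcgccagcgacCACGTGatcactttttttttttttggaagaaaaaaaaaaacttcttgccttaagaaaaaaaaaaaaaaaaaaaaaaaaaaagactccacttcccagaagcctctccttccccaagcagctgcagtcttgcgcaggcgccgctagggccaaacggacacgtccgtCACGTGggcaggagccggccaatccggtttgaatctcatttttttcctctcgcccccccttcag

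The Pik3r2 window held 1 GC box, the Irs2 window 1 E-box and 1 GC box, and the downstream Eif4e window 2 E-boxes, whereas the upstream Eif4e window held none of the 4 motifs. E-boxes were found in 5 of the 56 promoters that the table gives for 36 of the tested genes, or 8.93%, against 6.02% of all 32851 promoters. The GC box was in 57.1% of the 56 against 32.7% of all. The FoxO site was in 3.57% against 3.17%, and the cAMP response element was in 0 of the 56 against 1.55%. The 56 windows belong to genes that passed the filter, some with more than 1 window, whereas the 32851 were not limited to tested genes. The shares are thus not of like sets, and the differences between them were not tested. These matches describe the letters of the windows only, and no binding was measured.

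Levels, which are per length and can be set side by side, ran from 155 FPKM (OC mean) for Eif4b, a helper of the helicase that unwinds messenger RNA leaders, to the hundredths of 1 FPKM for 4 genes that were not tested. The 4 were Sgk3, an SGK kinase, at 0.04 to 0.07 FPKM, Prkaa2, the second catalytic subunit of AMPK, at 0.04 to 0.10, Inpp4b, a lipid phosphatase, at 0.01 to 0.03, and Inpp5d, a lipid phosphatase of blood cells, at 0.01 to 0.07. In several families 1 member stood well above the others (OC means). Among them were Akt1 at 79.8 FPKM over Akt2 at 18.5, Irs1 at 37.7 over Irs2 at 2.66, and Gsk3a at 26.0 over Gsk3b at 7.54. Pik3r2 was at 29.9 FPKM over Pik3r1 at 12.4 and Pik3r3 at 8.89. The 4E-binding proteins were close together, with Eif4ebp1 at 23.3 FPKM and Eif4ebp2 at 22.0. Among catalytic PI3K subunits Pik3ca was the highest at 5.38 FPKM, and Pik3cd, best known from leukocytes, was at 1.81. Of the leukocyte markers, Ptprc was at 0 to 0.01 FPKM over all libraries and Cd79a at 0 to 0.06. Cd68 was at 0.34 to 0.69, and Csf1r at 0.06 to 0.12 in OC and 0.22 to 0.29 in PAKG.

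**Figure D2:**
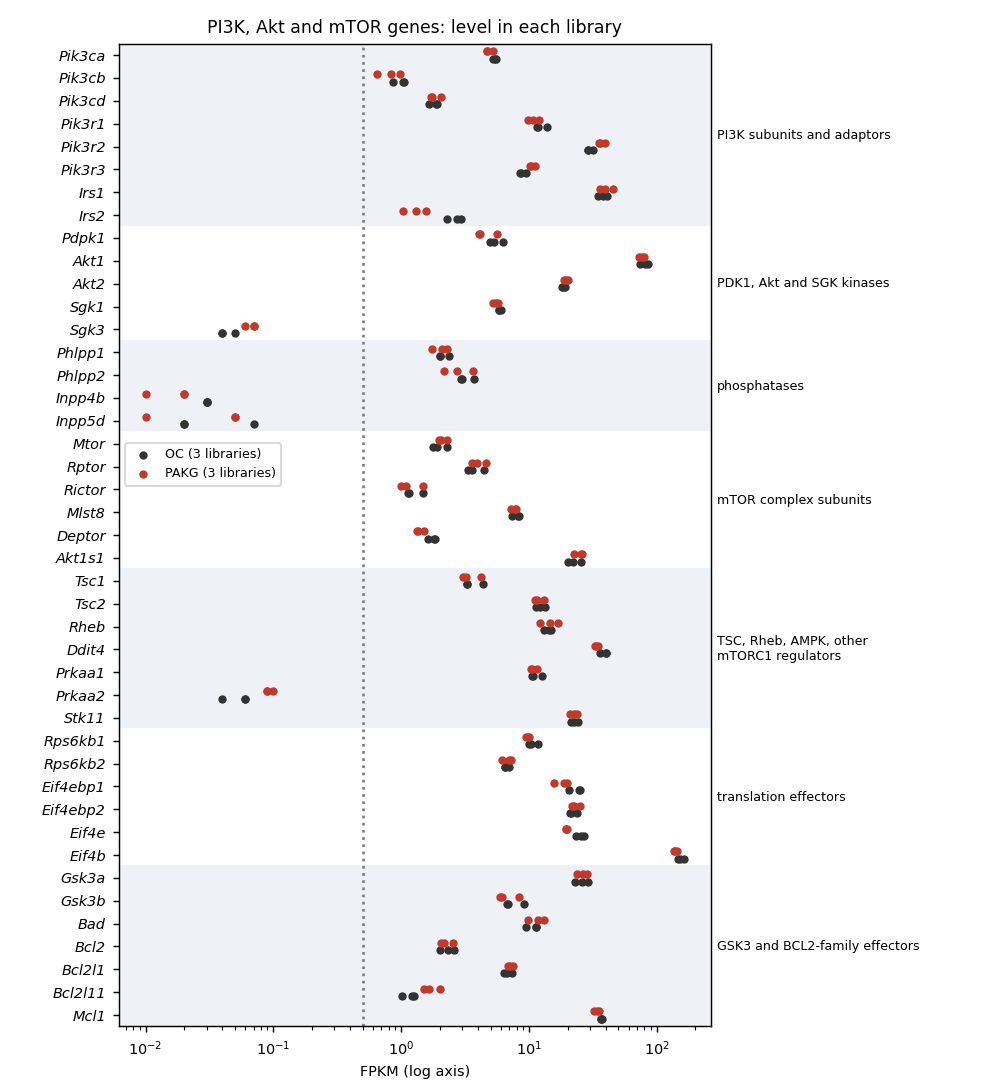
FPKM of the 43 genes (log x axis), grouped by role, with 1 point per library, OC in black and PAKG in red, and the filter of 0.5 FPKM as a dotted line. Most genes lie between 1 and 100 FPKM with both groups close together, and Sgk3, Inpp4b, Inpp5d and Prkaa2 lie below 0.5.

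Summed FPKM, which is already scaled to depth, ran from 295863.6 to 325818.2 in OC and from 289675.9 to 310581.7 in PAKG. The depth estimated from the lowest values was 32700000 (OC replicate 1) to 41700000 fragments (PAKG replicate 1). All 9 osteoblast markers reached 0.5 FPKM, and their sum was 5905.36 to 6944.15 in OC and 8601.57 to 9225.83 in PAKG. Most of that sum is Col1a1, Col1a2 and Sparc, while Spp1 went the other way, with 241.94 to 287.68 FPKM in OC and 173.22 to 208.43 in PAKG. Of the chondrocyte markers 2 of the 4 listed reached 0.5 FPKM (Col2a1 and Sox9), with a sum of 17.9 to 20.36 in OC and 58.73 to 61.44 in PAKG. Leukocyte markers (1 of 4 listed over 0.5 FPKM) summed to 0.62 to 0.74 in OC and 0.62 to 1.02 in PAKG, muscle markers (1 of 3) to 0.62 to 0.74 and 0.82 to 0.89, adipocyte markers (0 of 4) to 0 to 0.87 and 0 to 0, with all 4 above 0 in OC replicate 3 alone, and endothelial markers (0 of 2) to 0 to 0.02 and 0.03 to 0.03. Mitochondrial genes took 10.84% to 11.88% of FPKM in OC and 9.53% to 10.71% in PAKG. The part of these shifts in the results on the pathway was not tested, and in bulk RNA fewer cells of a type and less RNA per cell cannot be told apart.

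Insulin receptor substrates couple the insulin and IGF1 receptors to PI3K, and Irs2 had the largest change of the 39 genes. Irs2 (ENSMUSG00000038894, GRCm38 chromosome 8, 10984681 to 11008458, minus strand) was at 2.30, 2.92 and 2.75 FPKM in OC replicates 1, 2 and 3 and at 1.03, 1.56 and 1.30 in PAKG. The highest PAKG library lay below the lowest OC library, and replicate 2 was the highest of both groups. The means were 2.66 ± 0.32 and 1.30 ± 0.265 FPKM (SD, n = 3), a log2 fold change of -0.99 with a standard error of 0.17 (limma adjusted p = 0.00836), which is a fold of 1.99. Irs2 was called in all 15 alternative settings, in which its log2 fold change ran from -1.13 to -0.67. Irs1, the other substrate, was at 34.71 to 40.65 FPKM in OC and 36.22 to 45.61 in PAKG, with overlapping groups and a log2 fold change of 0.10 (adjusted p = 0.599 in limma). The share of Irs1 in the summed FPKM of Irs1 and Irs2 was 93.8%, 93.3% and 93.2% in OC and 97.2%, 96.7% and 96.8% in PAKG.

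Regulatory subunits hold the catalytic subunit stable and dock it on phosphorylated receptors and adaptors, and the 3 of them had changes of both signs. Pik3r2 (ENSMUSG00000031834, chromosome 8, 70768176 to 70776713, minus strand), which encodes p85β, was at 31.60, 29.10 and 28.95 FPKM in OC and at 39.21, 35.17 and 35.99 in PAKG. The groups did not overlap, and the log2 fold change was 0.30 with a standard error of 0.07 (limma adjusted p = 0.0343). That call was lost in 7 of the 15 alternatives: with no filter on low values (adjusted p = 0.0564), without the mean-variance trend (0.06), and without OC replicate 1 (0.0556), OC replicate 2 (0.0890), OC replicate 3 (0.134), PAKG replicate 1 (0.108) or PAKG replicate 3 (0.117). An exon of Pik3r2 overlaps 1 of 6330537M06Rik on the other strand, at 0.56 FPKM, and the strand setting of the counting is not given in the sources used here.

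Pik3r3, which encodes p55γ, was at 8.66, 9.52 and 8.50 FPKM in OC and at 10.42, 11.23 and 10.09 in PAKG. Its groups did not overlap, and its log2 fold change was 0.25 with an adjusted p of 0.0786 in limma without the block and 0.0144 with it. Pik3r1, which encodes p85α, was at 11.85, 13.87 and 11.58 FPKM in OC and at 9.88, 12.07 and 10.66 in PAKG. Here PAKG replicate 2 lay above OC replicates 1 and 3, but each PAKG library lay below the OC library of its number, and the log2 fold change of -0.19 passed limma only with the block (adjusted p = 0.0409, against 0.276 without it). Pik3r1 made up 22.7%, 26.4% and 23.6% of the summed FPKM of the 3 regulatory subunits in OC and 16.6%, 20.6% and 18.8% in PAKG, groups that did not overlap.

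The catalytic subunits gave no call. Pik3ca, which encodes p110α, was at 5.24 to 5.52 FPKM in OC and 4.70 to 5.26 in PAKG, with a log2 fold change of -0.14. Pik3cb, for p110β, was at 0.86 to 1.05 and 0.65 to 0.98 FPKM (-0.25 on the log2 scale), and Pik3cd, for p110δ, at 1.66 to 1.92 and 1.72 to 2.05 (0.01). All 3 overlapped between the groups, and their adjusted p in limma was 0.310 to 0.963 without the block and 0.131 to 0.936 with it.

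**Figure D3:**
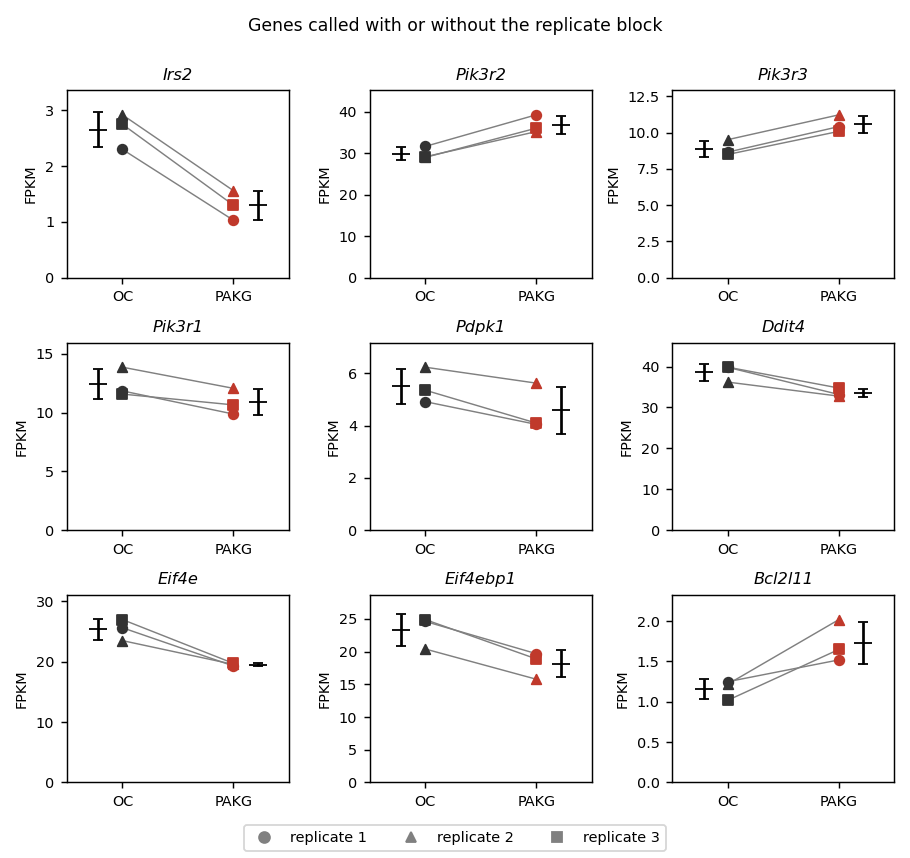
FPKM of the 9 genes called with or without the replicate block (y axes from 0), with each library as a point, libraries of the same replicate number joined by a line, and the mean ± SD (n = 3) beside each group. All lines slope the same way within a gene, which picking genes by these calls favors, while the groups overlap for Pik3r1 and Pdpk1.

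The kinases below PI3K had 0 of 4 tested genes called by limma, 0 at an unadjusted p under 0.05, and 1 lower with the block. That gene was Pdpk1, which encodes PDK1, the kinase that phosphorylates the activation loop of Akt and SGK. It was at 4.92, 6.24 and 5.36 FPKM in OC and at 4.05, 5.63 and 4.10 in PAKG. Replicate 2 was the highest in both groups, and the groups overlapped, with a log2 fold change of -0.27 (limma adjusted p = 0.291, and 0.0348 with the block). Akt1 was at 73.30 to 85.63 FPKM in OC and 72.62 to 78.85 in PAKG, a log2 fold change of -0.07 with a 95% interval of -0.25 to 0.12. Akt2, the isoform best known from glucose uptake, was at 18.05 to 18.99 and 18.63 to 20 FPKM, a log2 fold change of 0.06 with an interval of -0.09 to 0.21. Sgk1, a stress-induced and hormone-induced relative of Akt, was at 5.85, 5.82 and 6.03 FPKM in OC and 5.25, 5.51 and 5.76 in PAKG. The groups of Sgk1 did not overlap, but its log2 fold change of -0.10 with a standard error of 0.07 missed the threshold (limma adjusted p = 0.429).

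The PHLPP phosphatases remove the activating phosphate from the hydrophobic motif of Akt, and neither was called, at an unadjusted p under 0.05 or with the block. Phlpp1 was at 2.02, 2.35 and 2.01 FPKM in OC and 1.73, 2.28 and 2.10 in PAKG, with a log2 fold change of -0.06, a standard error of 0.13 and an adjusted p of 0.8 in limma. Phlpp2 was at 2.92, 3.71 and 3.01 FPKM in OC and 2.18, 3.63 and 2.72 in PAKG, with a log2 fold change of -0.19, a standard error of 0.19 and an adjusted p of 0.551. Both had their highest value in replicate 2 of each group, and that spread was wider than the difference between the groups. The intervals, -0.37 to 0.24 for Phlpp1 and -0.63 to 0.24 for Phlpp2, leave room for changes of up to 0.63 on the log2 scale.

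The mTOR complexes share the mTOR kinase and Mlst8, and Rptor marks complex 1 and Rictor complex 2. Of the 6 tested subunits 0 were called by limma with or without the block, and 1 was lower at an unadjusted p under 0.05. That gene was Deptor, an inhibitory subunit of both complexes, at 1.63, 1.85 and 1.81 FPKM in OC and 1.32, 1.5 and 1.36 in PAKG. Its groups did not overlap, and its log2 fold change was -0.32 with a standard error of 0.12 (limma adjusted p = 0.117, and 0.0553 with the block). Akt1s1, which encodes PRAS40, the complex 1 inhibitor that Akt phosphorylates, was at 25.53, 20.12 and 22.23 FPKM in OC and 26.10, 22.30 and 25.72 in PAKG, with a log2 fold change of 0.13 (adjusted p = 0.476). The exons of Akt1s1 overlap those of Tbc1d17 on the other strand, at 2.918 FPKM.

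The shared and defining subunits differed less. Mtor was at 1.77 to 2.30 FPKM in OC and 1.99 to 2.27 in PAKG, a log2 fold change of 0.08 with an interval of -0.21 to 0.37. Rptor was at 3.34 to 4.41 and 3.56 to 4.63 FPKM (0.09), Rictor at 1.13 to 1.49 and 0.99 to 1.47 (-0.09), and Mlst8 at 7.37 to 8.31 and 7.26 to 7.92 (-0.05). All 4 overlapped between the groups, with adjusted p from 0.719 to 0.807 in limma.

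Upstream of complex 1, the TSC complex holds Rheb inactive, AMPK and its activating kinase Stk11 (LKB1) signal low energy, and Ddit4 (REDD1) is a stress-induced inhibitor. Of these 6 tested genes 0 were called by limma without the block, 1 was lower at an unadjusted p under 0.05, and 1 was lower with the block. Ddit4 was that gene, at 39.80, 36.19 and 39.84 FPKM in OC and 33.16, 32.76 and 34.74 in PAKG. The groups did not overlap, and the log2 fold change was -0.20 with a standard error of 0.07 (limma adjusted p = 0.0990, and 0.0256 with the block). Prkaa1, the main catalytic subunit of AMPK here, was at 10.47, 12.68 and 10.81 FPKM in OC and 10.27, 11.51 and 10.53 in PAKG, a log2 fold change of -0.07 (adjusted p = 0.691).

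For the other 4 regulators the log2 fold change was at most 0.06 in size. Tsc1 was at 3.26 to 4.39 FPKM in OC and 3.03 to 4.21 in PAKG (-0.06), and Tsc2 at 11.27 to 13.35 and 11.12 to 13.11 (-0.04). Rheb was at 13.09 to 14.91 and 12.25 to 16.89 FPKM (0.04), and Stk11 at 21.17 to 24.16 and 20.94 to 23.71 (-0.01). Exons of Tsc2 overlap those of Pkd1 on the other strand, a gene at 11.268 FPKM, so that the value of Tsc2 is uncertain if strand was not used in counting.

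The translation effectors held 1 of the 3 calls. Eif4e (ENSMUSG00000028156, chromosome 3, 138526179 to 138559696, plus strand), which binds the cap of messenger RNA and is the protein that 4E-binding proteins hold back, was at 25.64, 23.51 and 27.00 FPKM in OC and at 19.30, 19.57 and 19.74 in PAKG. The groups did not overlap, and the PAKG libraries lay close together (19.5 ± 0.222 against 25.4 ± 1.76 FPKM, SD, n = 3). The log2 fold change was -0.37 with a standard error of 0.07 (limma adjusted p = 0.0139), a fold of 1.30. The call was lost without OC replicate 1 (adjusted p = 0.0547), OC replicate 3 (0.0693), PAKG replicate 1 (0.0503) or PAKG replicate 3 (0.0672), and kept in the other 11 alternatives.

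Eif4ebp1, which encodes the 4E-binding protein that mTOR complex 1 phosphorylates to free Eif4e, was at 24.63, 20.41 and 24.91 FPKM in OC and at 19.70, 15.79 and 18.90 in PAKG. Replicate 2 was the lowest of both groups, the groups did not overlap, and the log2 fold change was -0.36 with a standard error of 0.11. Its adjusted p in limma was 0.0767 without the block, 0.00384 with it, and 0.0499 when each library was rescaled to a common total. Eif4ebp2, its paralog, was at 20.81 to 23.85 FPKM in OC and 21.64 to 24.83 in PAKG, a log2 fold change of 0.06. Eif4ebp1 thus made up 53.4%, 46.1% and 54.5% of the sum of both paralogs in OC and 47.7%, 38.9% and 45.5% in PAKG, lower in PAKG in all 3 pairs but with overlapping groups.

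The S6 kinases and Eif4b gave no call. Rps6kb1 was at 9.93 to 11.65 FPKM in OC and 9.43 to 9.95 in PAKG (log2 fold change -0.12), and Rps6kb2 at 6.43 to 7.03 and 6.18 to 7.18 (0.03). Both kinases have exons that overlap a gene on the other strand, Rnft1 at 13.802 FPKM for Rps6kb1 and Coro1b at 56.56 FPKM for Rps6kb2, so their levels are uncertain to that extent. Eif4b was at 147.54 to 164.22 FPKM in OC and 135.14 to 142.96 in PAKG, without overlap, with a log2 fold change of -0.16 (limma adjusted p = 0.201, and 0.0534 with the block).

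The last group holds the GSK3 kinases and Bad, which Akt phosphorylates and restrains, and other BCL2-family genes that act on survival, among them Bcl2l11, a target of FoxO factors. By limma 0 of its 7 genes were called without the block. Bcl2l11, which encodes the pro-death protein BIM, was higher at an unadjusted p under 0.05 and with the block. It was at 1.25, 1.22 and 1.02 FPKM in OC and at 1.52, 2.02 and 1.65 in PAKG, so that the groups did not overlap. Its log2 fold change was 0.53 with a standard error of 0.15 and an interval of 0.18 to 0.88, the largest positive change of the 39 genes (limma adjusted p = 0.0555, and 0.0303 with the block). Mcl1, a pro-survival relative of BCL2, was at 36.80, 36.85 and 37.32 FPKM in OC and 34.08, 32.21 and 35.10 in PAKG, without overlap, with a log2 fold change of -0.13 (adjusted p = 0.224).

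Among the remaining survival genes no difference passed the test. Bcl2 was at 2.01 to 2.59 FPKM in OC and 2.05 to 2.52 in PAKG (log2 fold change -0.04), and Bcl2l1, which encodes BCL-XL, at 6.39 to 7.40 and 6.84 to 7.52 (0.06). Bad, a pro-death protein that Akt holds inactive, was at 9.53 to 11.42 and 9.84 to 13.21 FPKM (0.11). Gsk3a was at 22.71 to 29.16 and 23.55 to 28.19 FPKM (0.01), and Gsk3b, a kinase that also marks β-catenin for breakdown, at 6.67 to 9.09 and 5.92 to 8.4 (-0.15). Exons of Bad and Gsk3a overlap Gpr137 (4.548 FPKM) and 9130221H12Rik (4.925 FPKM) on the other strand.

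The makeup of gene families was compared as 11 shares of summed FPKM within each library. The groups did not overlap for 4 shares: Irs1 among the insulin receptor substrates (3.48 percentage points higher in PAKG), Pik3r1 among the regulatory subunits (a difference of -5.58 points), Sgk1 against Sgk3 (-0.468) and Prkaa1 against Prkaa2 (-0.384). The last 2 pairs contain a gene under the filter, and Sgk1 and Prkaa1 took 98.7% or more in every library. Each of the 4 had p = 0.1 in a 2-sided exact permutation test, the smallest p that 3 against 3 libraries allow, and an adjusted p of 0.275 over the 11 shares. Akt1 took 81.1 ± 0.816% of the sum of Akt1 and Akt2 in OC and 79.7 ± 1.14% in PAKG (SD, n = 3), with overlapping groups. For the catalytic subunits Pik3ca took 65.8 ± 0.642% in OC and 64.9 ± 1.47% in PAKG, also with overlap.

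**Figure D4:**
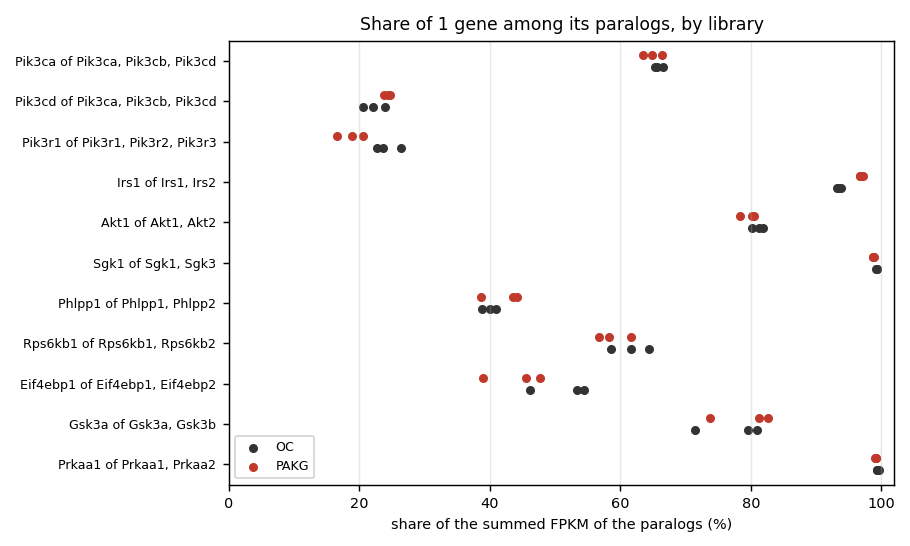
Share (%, x axis from 0) of 1 gene in the summed FPKM of its paralogs for 11 comparisons, with 1 point per library, OC in black and PAKG in red. The groups lie apart for Irs1, Pik3r1, Sgk1 and Prkaa1 and overlap for the other 7 shares.

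Within each group, replicate 2 was often the library at the edge. It had the highest value in both groups for 20 of the 39 genes, or 51.3%, against 27.5% of all genes, and the lowest in both for 9 (23.1% against 31.0%). Among the 20 were Mtor, Rptor, Rictor, Tsc1, Tsc2, Pdpk1, Irs1 and Irs2, whereas Akt1, Akt1s1, Rheb, Ddit4, Eif4ebp1, Bad and Stk11 were among the 9. Over 12583 genes the deviation of a library from its group mean correlated with log2 exon length at 0.34 in OC replicate 2 and 0.29 in PAKG replicate 2, and at -0.20 to -0.16 in the other 4, as a description across genes of the same libraries. The part of transcript length in the values of these genes was not tested. With replicate 2 of both groups left out, 2 of the 39 genes were called higher (Pik3r2 and Pik3r3) and 5 lower (Irs2, Eif4e, Eif4ebp1, Ddit4 and Pdpk1). That is 17.9% of the 39, below the 21.9% of all genes called without these libraries (9.53% higher and 12.3% lower).

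**Figure D5:**
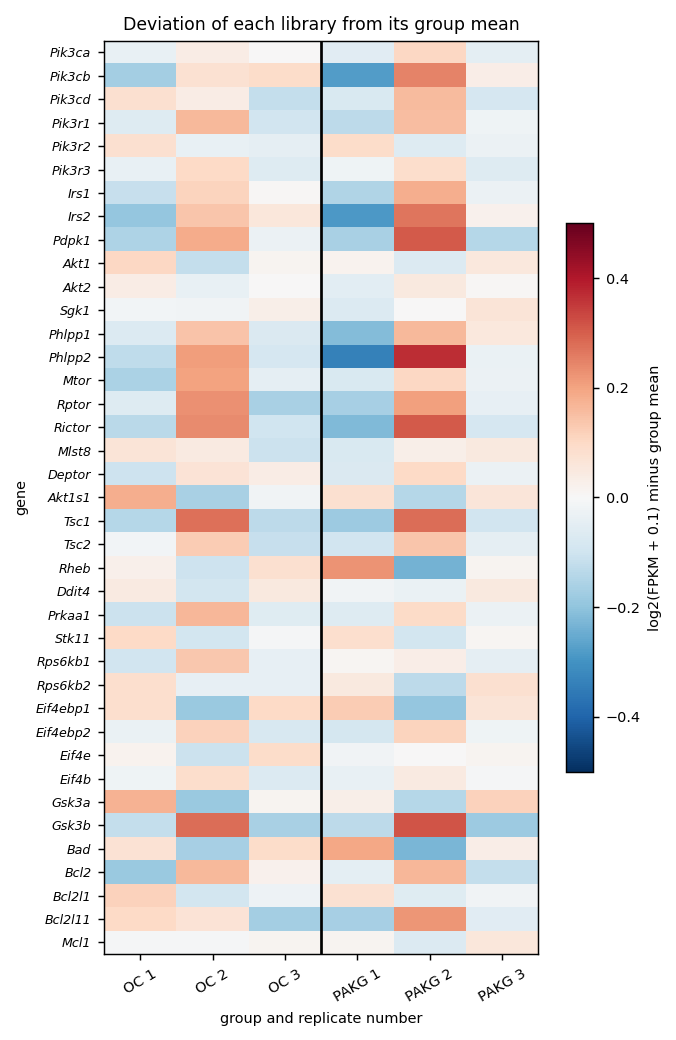
Deviation of each library from its group mean (color, log2(FPKM + 0.1) scale, red above and blue below) for the 39 tested genes, in rows, and the 6 libraries, in columns. Replicate 2 is the highest library in both groups for 20 genes and the lowest in both for 9.

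Further genes of the pathway, listed by role with earlier results of these data known, comprised 77 symbols, of which 72 were found and 62 tested. Of these 62, 7 were higher and 4 lower in PAKG (limma, adjusted p under 0.05), which is 17.7% against 14.7% of all genes, and 0 reached a 2-fold change. With the block 15 were higher and 8 lower, or 37.1% against 29.5%. When the libraries were rescaled to a common total or by median ratios, the split was 8 higher and 1 lower. Sesn2, Sesn3 and Trib3, lower in PAKG, missed the threshold in both settings. The genes called higher were not all the same. With the common total Kptn (limma adjusted p = 0.0444) and Lamtor4 (0.0318) newly passed and Inpp4a (0.0782) missed, while with median ratios Prkag2 newly passed (0.0454). The median log2 fold change of all genes was -0.03 as deposited, 0.01 with the common total and -0.002 with median ratios.

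Of the 8 other PI3K subunits and phosphoinositide enzymes tested, 2 were higher and 0 lower. Pik3ip1, a membrane protein that restrains PI3K, was at 6.18, 6.11 and 6.33 FPKM in OC and at 9.29, 9.19 and 9.27 in PAKG. Its libraries were tight within each group and far apart between them, a log2 fold change of 0.57 with a standard error of 0.06 (limma adjusted p = 0.00160), called in all 15 alternatives. Inpp4a, a phosphoinositide 4-phosphatase, was at 2.24, 2.45 and 2.25 FPKM in OC and 3.06, 3.22 and 2.76 in PAKG, a log2 fold change of 0.37 (adjusted p = 0.0474). Inpp4a lost its call when any of the 6 libraries was left out (adjusted p from 0.0652 to 0.153). The call was also lost with no filter on low values (0.105), with a common total (0.0782) and without replicate 2 of both groups (0.0513). Of the 2 other mTOR complex 2 subunits tested 0 were called by limma, at an unadjusted p under 0.05 or with the block. Mapkap1, which encodes SIN1, was at 18.87 to 20.28 FPKM in OC and 17.96 to 19.57 in PAKG, a log2 fold change of -0.07 (adjusted p = 0.534).

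Of the 25 genes of the Rag, Ragulator and amino acid sensing machinery, 2 were higher and 2 lower, and the 3 sestrins, which hold back the amino acid signal to mTOR complex 1, did not share a direction. Sesn1 was at 14.70, 16.14 and 14.58 FPKM in OC and 18.57, 19.72 and 19.05 in PAKG, a log2 fold change of 0.34 (limma adjusted p = 0.0195). Sesn2 was at 22.54, 21.36 and 21.21 FPKM in OC and 18.11, 18.51 and 18.20 in PAKG, a log2 fold change of -0.25 (adjusted p = 0.0375). Sesn3, at 7.05, 9.62 and 8.10 FPKM in OC and 5.33, 6.56 and 5.45 in PAKG, differed by -0.50 on the log2 scale (adjusted p = 0.0434). None of the 3 sestrins overlapped between the groups, but with a common total Sesn2 and Sesn3 had adjusted p of 0.137 and 0.107, and Sesn1 kept its call at 0.0386. Castor2, a paralog of the arginine sensor Castor1, was at 1.68, 1.71 and 1.74 FPKM in OC and 2.27, 2.59 and 2.26 in PAKG, with a log2 fold change of 0.45 (adjusted p = 0.0271). Leaving out a library ended these calls in most cases: for Sesn1 without OC replicate 1, OC replicate 3 or PAKG replicate 3 (up to 0.0920), for Sesn2 in all but PAKG replicate 2 (up to 0.161), for Sesn3 in all but OC replicate 1 and PAKG replicate 2 (up to 0.146), and for Castor2 in all 6 (up to 0.0878). With no filter on low values Sesn3 (0.0977) and Castor2 (0.072) lost their calls. Sesn2 and Sesn3 also lost theirs with median ratios (0.0559 and 0.0616) and without the mean-variance trend (0.0638 and 0.0649).

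Of the 9 AMPK and LKB1 partners 1 was higher. Prkab2, a scaffold subunit of AMPK, was at 3.31, 3.44 and 3.11 FPKM in OC and 4.27, 4.84 and 4.19 in PAKG, a log2 fold change of 0.42 with a standard error of 0.09 (limma adjusted p = 0.0228). The groups did not overlap, and the call was lost without OC replicates 1 or 3 or PAKG replicates 1 or 3 (adjusted p up to 0.0958). It was also lost with no filter on low values (0.0508).

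Of the 18 translation and growth targets 2 were higher and 2 lower. Ddit4l, a paralog of Ddit4 and likewise an inhibitor of mTOR complex 1, was at 3.73, 3.61 and 3.65 FPKM in OC and at 2.05, 1.88 and 2.22 in PAKG. It differed by -0.81 on the log2 scale, with a standard error of 0.10 and an adjusted p of 0.00174 in limma, and was called in all 15 alternatives. Eef2k, the kinase that slows translation elongation, was at 8.91, 9.50 and 8.80 FPKM in OC and 11.94, 13.25 and 12.19 in PAKG, a log2 fold change of 0.45 (adjusted p = 0.00711), again in all 15. Pdcd4, an inhibitor of the helicase Eif4a that S6 kinase marks for breakdown, was at 16.13, 17.86 and 17.93 FPKM in OC and 24.55, 21.93 and 22.41 in PAKG, a log2 fold change of 0.41 (adjusted p = 0.0135). Its call was lost without OC replicate 1 (0.0511) or PAKG replicate 3 (0.0578). Trib3, a pseudokinase that binds Akt, was the other gene called lower, at 2.73, 2.13 and 1.92 FPKM in OC and 1.68, 1.36 and 1.21 in PAKG, a log2 fold change of -0.63 (adjusted p = 0.0472). Its call held in 5 of the 15 alternatives, and of the libraries only leaving out PAKG replicate 1 kept it (adjusted p up to 0.159 without the others).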

How the data were processed

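The authors deposited 1 table per library of FPKM, to 2 decimals, for 26187 genes. Per the submitters' processing notes, the tools were HISAT2, StringTie, cutadapt, FastQC and DESeq2, and the build was GRCm38. Neither versions nor the annotation or strand setting were found in the labels or the paper. As FPKM cannot enter a count model, none was fitted. Coordinates and overlaps came from GENCODE M21, which held 99.76% of the gene IDs, and promoters from RefSeq (GRCm38.p6).

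Values were taken as log2(FPKM + 0.1). A filter at a mean of 0.5 FPKM left 12590 genes, which were compared, PAKG against OC (3 libraries each), with limma 3.58.1 in R 4.3.3 (lmFit and eBayes with a mean-variance trend, 2-sided) and adjusted by Benjamini-Hochberg over all of them. Genes were called at an adjusted p under 0.05. The fit was tested on simulated data. Shares of paralogs were compared with 2-sided exact permutation tests. Python 3.11.15, pandas 2.3.3, numpy 2.4.6 and matplotlib 3.10.9 served for tables and plots. The estimate of depth rests on the FPKM worth of 1 fragment on 1 kb (0.024 to 0.0306). Whole reads were not recovered.

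Both groups carry the replicate numbers 1 to 3. Over the tested genes, the deviations of 2 libraries from their group means had a Pearson r of 0.192 to 0.43 where the number was shared and of -0.312 to 0.138 otherwise. All 3 pairs passed the minimum of 0.1, with 0.24, 0.43 and 0.192 for replicates 1, 2 and 3. OC replicate 1 with PAKG replicate 3 passed it too, at 0.138, so the minimum alone does not single out equal numbers. Taking the numbers as pairs was a choice made from these same values, and the block is given only as an alternative. No source used here says what a number marks.

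The genes and lists were chosen with earlier results of these data known. In each role the called genes were named with their library values, at most 4, or the 2 with the smallest p where fewer than 2 were called. From each further list up to 3 called genes were named, or 1 where none was. Pik3r1 and Pik3r3, which passed with the block and not without it, and the remaining called genes Sesn3 and Trib3 were described after their values were seen. Alternatives were pseudocounts of 1 and 0.01, no filter, a filter at 1 FPKM, a common FPKM total (TPM), median-ratio scaling, no trend, the block, each library left out, and replicate 2 of both groups left out.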

Additional observations from a re-analysis of the deposited data

How the results depend on the processing

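Among the 39 core genes, the count called higher (1) became 0 with no filter on low values, 3 with the replicate block, 2 without replicate 2 of both groups, and 0 to 1 when 1 library was left out. The count called lower (2) became 6 with the block, 5 without replicate 2 of both groups, and 1 to 3 with 1 library left out. The count past a 2-fold change (0) became 1, the gene Irs2, with a pseudocount of 0.01 or without replicate 2 of both groups, and was 0 to 1 with 1 library left out (1 without OC replicate 1, PAKG replicate 2 or PAKG replicate 3). Without the mean-variance trend the count of 1 higher was Bcl2l11 (adjusted p = 0.0435 in limma) in place of Pik3r2.

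Of the 62 further genes, the 7 called higher became 4 with no filter, 15 with the block, 11 without replicate 2 of both groups, and 2 to 8 with 1 library left out. The 4 called lower became 2 with no filter, 1 with a common FPKM total, with median-ratio scaling or without the trend, 8 with the block, and 1 to 5 with 1 library left out. Fewer samples or more genes tested are part of how the leave-out and no-filter settings are built, and the cause of the other shifts was not tested.

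The 16 named core genes and 10 named further genes gave 390 values under the alternatives. Of these, 328 kept direction and side of the threshold, 45 kept direction but missed it, 14 newly passed it, and 3 changed sign. Only a called gene can lose a call, so the 45 all lie on called genes, while many of the 328 are genes that stayed uncalled. Sesn3 and Trib3 are not among the named genes. The sign changes were in genes that were not called: with 1 library left out the log2 fold change of Phlpp1 ran from -0.15 to 0.04, being 0.01 without OC replicate 2 and 0.04 without PAKG replicate 1, and that of Prkaa1 ran from -0.12 to 0.02, being 0.02 without OC replicate 2. With pairs of equal number, a sign-flip test of the 11 shares cannot go below p = 0.25, which is exact for 3 pairs. Without the block, the smallest change called among the core genes was that of Pik3r2, a fold of 1.23, and rounding to 2 decimals is coarse for genes near 0.1 FPKM.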
